A study of Homo sapiens with 6 samples.

Results

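Ribosome production was described here through 54 human genes. They are the transcription factor MYC, 8 genes of RNA polymerase I (Pol I) and its factors, and 45 others. Proteins of these 45 process ribosomal RNA or assemble the ribosomal subunits. The 54 were picked by gene symbol, as rows of the deposited table whose symbol is on the list, out of 63236 rows in all. The 54 symbols were found on 58 rows, because FBL, RRN3, UTP4 and EMG1 each have a second Ensembl identifier. The second rows of FBL, RRN3 and UTP4 were at 0 and that of EMG1 was at 25.5, and the row on the main chromosomes was used for each.

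The RNA came from FUJIOKA, a line of human acute myeloid leukaemia cells with a complex karyotype. Cells of all 6 libraries carry the Tet-pLKO-puro lentiviral vector and were selected with puromycin, and doxycycline switches on the hairpin RNA. In 3 libraries (shNEG) the hairpin is a scrambled control, and in the other 3 (shSPINK2) it targets SPINK2, a serine protease inhibitor. The methods speak of 1 SPINK2 hairpin and the sample labels of 2, and the time on doxycycline at RNA harvest is not given in the sources used here. Nothing in the labels says that libraries of a group came from separate cultures, and all come from a single cell line.

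The table holds the authors' comparison of these groups and, for each gene, 1 mean normalised read count over all 6 libraries. The authors' fold changes and p-values were not used, and the table gives no value per library. The difference between shSPINK2 and shNEG in these genes was therefore not analysed here, and no spread between libraries stands behind any value below. A mean over both groups does not give the level in either group. SPINK2 itself (chromosome 4, 56809860 to 56821742, GRCh38) had a mean of 32.3 normalised reads and sat at percentile 36.0 of protein-coding genes, which does not show the knockdown, since the shNEG and shSPINK2 libraries are averaged in it.

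Ribosome production starts in the nucleolus, where Pol I transcribes a long precursor of ribosomal RNA from tandem repeats. Small nucleolar RNAs (snoRNAs) in protein particles of the box C/D and box H/ACA classes guide methylation and pseudouridylation of that precursor, while nucleases, helicases and assembly factors cut and fold it into the small and large subunits. MYC, a transcription factor that binds E-box sequences together with its partner MAX, is known to drive transcription of many of these factors, and the pathway is very active in dividing leukaemia cells.

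Levels were compared between genes only per length. Each mean was divided by the length of the gene's canonical transcript and scaled so that all genes with a length sum to 1000000, and the result is given as the level. The percentile of a gene is its place among the 16127 protein-coding genes with a mean above 0, whose median level was 9.64. The 54 genes together held 0.836% of all normalised reads. Counting error alone ranged from 0.200% of the mean for NPM1 to 1.69% for SBDS when the mean is taken over 6 libraries, and it covers counting only. In bulk RNA, fewer cells that use a gene and less RNA per cell cannot be told apart.

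Most of the genes were well above a typical protein-coding gene. Their median level was 83.0, at percentile 87.6, and 52 of the 54 lay above the median gene, the exceptions being UTP20 at 7.77 and EMG1 at 6.60. Of the 54, 44 lay above percentile 75, 23 above percentile 90 and 11 above percentile 95. The 5 highest levels were those of NPM1 (1691), FBL (571), POLR1D (540), NHP2 (393) and NOP10 (373). NPM1 and NCL alone held 21.4% of the summed mean of the 54 genes.

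MYC had the third highest mean of the 54 genes, 16236 normalised reads, behind NPM1 and NCL. Its level was 233, at percentile 95.9, on chromosome 8 from 127735434 to 127742951, where 5.21% of its 3721-base transcript lies inside an exon of CASC11 on the other strand. MAX, the partner without which MYC does not bind an E-box, had a level of 179 and percentile 94.7. The MYC to MAX ratio of levels was 1.30 by canonical transcript, 0.849 by coding length and 2.47 by all exons, so which of them is higher depends on the length used.

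Among the 11 other genes of the MYC network, MYCN was listed at 0 and MYCL was low, with a mean of 137 and a level of 2.09. Of the MXD proteins, which compete with MYC for MAX, MXD1 had a level of 6.92, MXD3 27.0, MXI1 31.9 and MXD4 41.3. The median of the 11 genes was 23.2, and MAX was the highest of them. Of MYC, MYCN and MYCL, only MYC lay above the median protein-coding gene.

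The Pol I genes had a median level of 61.5, with POLR1B lowest at 25.2 and POLR1D highest at 540. The 2 largest subunits, POLR1A and POLR1B, which together form the catalytic centre, had levels of 27.8 and 25.2, and their ratio was 1.10 by transcript, 1.21 by coding length and 0.835 by all exons. POLR1C, a subunit shared with Pol III, had a level of 66.3, and POLR1E, of the subcomplex that helps initiation, 41.0. POLR1D, the shared partner of POLR1C, stood far above the other subunits on its 693-base canonical transcript of 2 exons. By all annotated exons its level was 53.9, below POLR1E at 54.1. The ratio of POLR1D to POLR1A was 19.4 by canonical transcript and 13.9 by coding length but 1.72 by all annotated exons, which cover 12363 bases for POLR1D.

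Among the factors that bring Pol I to its promoter, UBTF, which binds along the repeats, had a level of 90.6, and RRN3, the bridge between the polymerase and the promoter factors, had 56.8. TAF1D, a subunit of the selectivity factor, had 124. The other 5 factors listed, which include the other selectivity factor subunits TAF1A, TAF1B and TAF1C, had a median of 24.6, from 9.85 for TAF1A to 38.2 for BAZ2A, a chromatin protein known to silence the repeats. By canonical transcript BAZ2A and TAF1C lay above POLR1A and POLR1B, while by coding length BAZ2A, at 28.6, was below POLR1A, at 32.2.

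The other 8 Pol I subunits had a median of 49.9. Of the 5 subunits that the 3 nuclear polymerases share, POLR2K had a level of 150, POLR2L of 142, POLR2E of 122 and POLR2H of 42.5. POLR2F was listed with a mean of 4.80 and a level of 0.124. No part of the POLR2F transcript lies inside exons of another listed gene, and why its mean is so low was not tested. The 11 subunits found in Pol III had a median of 30.4, from POLR3G at 7.13 to CRCP at 51.9.

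The modification particles stood high as a group. In the box C/D particle, FBL, the methyltransferase, had a level of 571, NOP56 of 319 and NOP58 of 116. NOP56 and NOP58 are a pair of related scaffold proteins that sit side by side in each particle, and their ratio was 2.74 by transcript, 2.34 by coding length and 1.74 by all exons. The ratio of FBL to NOP56 was 1.79, 1.95 and 2.44 on the same scales.

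In the box H/ACA particle, NHP2 had a level of 393, NOP10 of 373, DKC1, the pseudouridine synthase, of 229 and GAR1 of 119. NHP2 and NOP10 changed places with the length used, with a ratio of 1.05 by transcript, 0.678 by coding length and 1.73 by all exons. The ratio of DKC1 to GAR1 was 1.92 by transcript and 0.995 by all exons. Of the NHP2 transcript, 48.2% lies inside exons of RMND5B on the other strand, which had a mean of 1093 against 5733 for NHP2.

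The nucleolar scaffold and chaperone proteins ranged from MYBBP1A to NPM1. NPM1, the nucleophosmin gene that is often mutated in this leukaemia, had a mean of 41746 and was at percentile 99.5. NCL, nucleolin, had a mean of 26863 on a longer transcript and a level of 366. NOLC1, a chaperone of snoRNA particles, had a level of 209, DDX21, a helicase that links Pol I transcription to processing, 171, and MYBBP1A 71.6. The ratio of NPM1 to NCL was 4.62 by transcript, 3.75 by coding length and 1.67 by all exons, and by all exons NPM1 was at 0.894 of FBL.

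The 16 small subunit factors were lower, with a median of 54.1 and no gene above UTP4 at 109. UTP4, WDR43, WDR75, HEATR1 and UTP15 make proteins of one early subcomplex that binds the nascent precursor and had levels of 109, 67.5, 56.7, 30.8 and 10.9. Their means were 4476, 4426, 2805, 4882 and 1036 normalised reads, so HEATR1 had the highest mean of the 5 but, on a transcript of 8459 bases, the second lowest level. UTP20, a scaffold protein of the same early particle with 62 exons, had a mean of 1313 and a level of 7.77. NOP14 had a level of 82.8 and RRP9, a protein of the snoRNA particle that starts processing, 63.2.

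Among the enzymes of the small subunit, NAT10, which acetylates ribosomal RNA, had a level of 59.0, the helicase DDX10 35.6 and the methyltransferase EMG1 6.60. The late factors were close together. NOB1, the nuclease of the last cut, had 83.2, LTV1 54.2, TSR1 54.1, RRP12 53.5 and BYSL 48.4. With no spread between libraries, no order among LTV1, TSR1 and RRP12 can be read from these values.

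The 36 other small subunit factors had a median level of 43.6, at percentile 78.2, and 34 of them lay above the median protein-coding gene. SNU13, a protein of the box C/D particle, was highest at 256. DDX47, a helicase, was lowest at 1.60, and 99.7% of its transcript lies inside exons of other listed genes. The largest share was with APOLD1, which had a mean of 457.

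The 17 large subunit factors had a median of 93.6. EIF6, which keeps an unfinished large subunit from joining the small one, was highest at 264, and SBDS, the protein known to release EIF6 from it, was among the lowest at 19.3, a ratio of SBDS to EIF6 of 0.0731 by transcript, 0.108 by coding length and 0.0643 by all exons. SBDS also had the lowest mean of the 54 genes, 583 normalised reads. PPAN was lowest by level at 14.5.

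PES1, BOP1 and WDR12 form one complex that the large subunit needs for maturation. Their levels were 172, 128 and 24.2 by canonical transcript. The WDR12 transcript has 8068 bases, of which 1269 are coding, and by coding length the 3 levels were 106, 66.5 and 73.8. The ratio of BOP1 to WDR12 was therefore 5.28 by transcript, 3.98 by all exons and 0.901 by coding length, and only PES1 was above the others on every scale.

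Of the remaining large subunit factors, EBNA1BP2 had a level of 171, the GTPase GNL3 149, MRTO4, a placeholder for a stalk protein, 120, NOP16 116 and the helicase DDX18 108. NIP7 had 93.6, the methyltransferase NOP2 90.9, RRS1 74.4, BRIX1 62.7, GRWD1 50.0 and RRP1 44.1. The 32 large subunit factors outside the list had a median of 55.3, at percentile 82.0, with 30 above the median protein-coding gene. RSL24D1 was highest at 163 and NOL9, a kinase of the precursor RNA, lowest at 5.48.

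RNA of the 54 genes was far below that of ribosomal protein genes by median and by sum. Single genes overlapped, and NPM1 (1691) and FBL (571) both lay above RPS26 (555). The 79 ribosomal proteins had a median level of 1929, at percentile 99.5, with RPS2 highest at 5832, and they summed to 145805 against 8357 for the 54 genes. RPS10 was lowest at 6.27, and 84.0% of its transcript lies inside exons of other listed genes. The largest share was with RPS10-NUDT3, a readthrough gene.

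**Figure D1:**
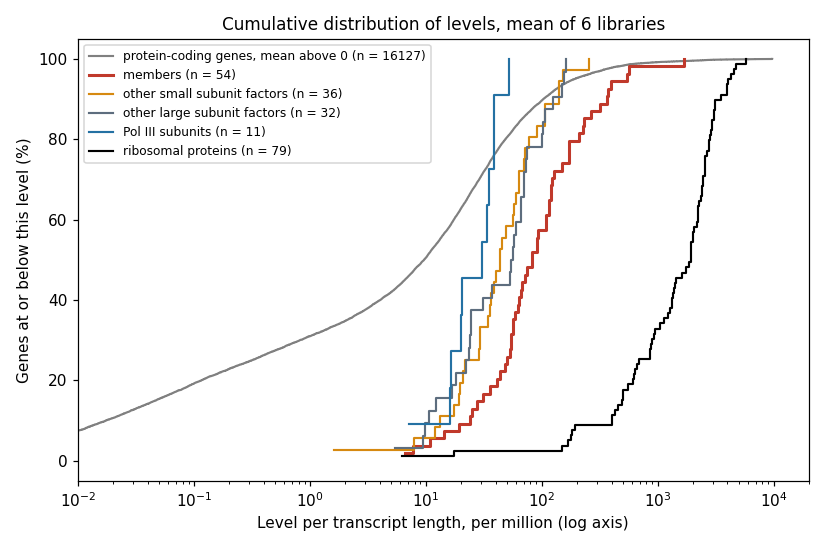
Share of genes at or below each level, in percent, against the level on a log axis, for protein-coding genes with a mean above 0 (n = 16127), the 54 members and 4 comparison lists (36 other small subunit factors, 32 other large subunit factors, 11 Pol III subunits and 79 ribosomal proteins). By median the members lie right of protein-coding genes and of the other assembly factors, at 83.0 against 9.64, 43.6 and 55.3. By the same measure they lie left of the ribosomal proteins, whose median is 1929.

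The choice of length moved single genes. By coding length the median of the 54 genes was 55.9, at percentile 80.0. EMG1 moved most, by a factor of 3.19, from 6.60 to 21.1, and WDR12 by 3.05, from place 49 to place 24 of 54. GRWD1 moved by 1.92 and NIP7 by 1.82, while WDR75 and UTP4 fell to 0.509 of their transcript-based level. Levels by coding length were rescaled to the same sum over all genes. Each of these factors, and the change in the median level, therefore includes a factor common to all genes. Of the 2188 bases of the UTP4 transcript 2058 are coding, and of the 2647 of WDR75 2490, so their fall comes mostly from that rescaling. Places and percentiles do not carry the common factor. UTP20 was the lowest gene by coding length, at 4.03.

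Reads can be lost or gained where genes share sequence, and strandedness of the counting is not given in the sources used here. The share of each canonical transcript that lies inside exons of another gene of the table was therefore set beside its level. For 34 of the 54 genes it was 0, for 6 it was over 25% and for 2 it was over 50%. Among protein-coding genes, 5.77% had over 50%.

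EMG1 and PPAN, the 2 genes over 50%, were also among the 4 lowest by level. For EMG1, 63.5% of the transcript lies inside exons of LPCAT3 on the other strand, which had a mean of 942 against 602 for EMG1. For PPAN the share was 61.8%, nearly all of it with PPAN-P2RY11 (59.7%), a readthrough gene with a mean of 1.49 against 624 for PPAN. UTP15 and UTP20, the other 2 of the 4, overlap no exon of a listed gene. Over all protein-coding genes, those without overlap had a median percentile of 50.8 and those with over 50% had 30.1, and what overlap does to the levels of EMG1 and PPAN was not tested.

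Beside NHP2, given above at 48.2%, the other members with shares of over 20% were LTV1 at 34.7%, TSR1 at 27.0% with SRR, EIF6 at 26.6%, NOB1 at 25.0%, HEATR1 at 24.8% with LGALS8, NOP16 at 24.4% with ARL10 and NOP14 at 20.6% with NOP14-AS1. LGALS8 had a mean of 4311, close to the 4882 of HEATR1, while SRR had 238 and NOP14-AS1 528. Of the HEATR1 transcript, 1.67% overlaps on the same strand.

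Pseudogenes are another place where reads can be shared. The annotation names 75 pseudogenes after 13 of the members, of which 46 had a mean above 0. For SBDS the copy exceeded the gene, with SBDSP1 at a mean of 1512 against 583 for SBDS, or 259% of it, so the split of reads between the 2 is uncertain and with it the level of SBDS given above. RRN3 was next, with RRN3P1 at 756, RRN3P3 at 260 and a sum of 25.8% of RRN3. NPM1 has the most, 49 named pseudogenes with 28 above 0, but they summed to 445 normalised reads, or 1.06% of NPM1, of which NPM1P27 held 318. For the other members with named pseudogenes the sum was at most 0.774% of the gene, as in DDX10.

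Some members also carry the guides of their own pathway. Inside 9 of the 54 genes lie 35 annotated snoRNA genes, all on the strand of the host, with 8 in TAF1D, 6 in GNL3, 5 in NOP56, 4 in NOP58, 3 each in NCL and WDR43, and 2 each in DKC1, TSR1 and PPAN. NOP56 and NOP58, core proteins of the box C/D particle, host box C/D guides such as SNORD57 and SNORD11, and DKC1 hosts the H/ACA guides SNORA36A and SNORA56. The median level of the 9 hosts was 124, against 74.4 for the other members.

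The snoRNAs themselves were barely counted. Of the 35, 19 had a mean above 0, against 255 of 941 snoRNA genes in the table (27.1%). The highest were SNORD19 in GNL3 at 15.0 normalised reads, SNORD6 in TAF1D at 13.7, SNORA75 in NCL at 8.43 and SNORD69 in GNL3 at 8.11. The mean of the host exceeded the sum of its snoRNAs by 192 times in GNL3 and by up to 31900 times in DKC1. The libraries were made with an mRNA kit, while mature snoRNAs are short and have no poly(A) tail, so these values do not measure snoRNA abundance.

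The promoters of the members were read next for the E-box, since MYC is one of the 54 genes. RefSeq promoters of GRCh38.p14, running from 250 bases before to 50 bases after the start, were matched by symbol for 46 of the 54 genes. MYC, BOP1, RRS1, NOP58, NOLC1, DDX18, RRP12 and POLR1E had no match. The canonical E-box, CACGTG, reads the same on both strands. It was present in 15 of the 46 promoters (32.6%, exact Clopper-Pearson 95% interval 19.5 to 48.0), against 1203 of 12727 promoters of protein-coding genes with a mean above 0 (9.45%). In the 250 bases before the start alone the share was 13.0%, against 8.58%. These intervals cover counting error only, and the genes of a pathway are not independent draws.

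The motif lay close to the start in nearly every case. Of 16 sites in the 15 promoters, 14 were within 50 bases of the start. They lay in 14 promoters (30.4% of 46), 1 in each, against 480 of the 12727 (3.77%). The trait is not particular to the members, since 10 of 30 other small subunit factors (33.3%) and 6 of 29 other large ones (20.7%) had it. The 14 windows are shown so that the motif, its place and the bases around it can be compared between members, each 5′ to 3′ on the strand of the gene with 9 bases on either side and the motif in capitals. The position is that of the first base of the motif, with the start site at 1 and the base before it at -1.

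UTP4, chr16:69132624-69132647, plus strand, motif at -16: gcgcgcgcgCACGTGgggccgggg
NAT10, chr11:34105605-34105628, plus strand, motif at -15: gcgcttgcgCACGTGctgtctacc
NOP10, chr15:34343133-34343156, minus strand, motif at -11: attgacgaaCACGTGacgcggtcg
UTP20, chr12:101280086-101280109, plus strand, motif at -10: ttttccgtcCACGTGacccactca
RRP9, chr3:51941895-51941918, minus strand, motif at -5: ttcagctgcCACGTGagttctgcg
WDR43, chr2:28894661-28894684, plus strand, motif at 4: acggacgaaCACGTGgctgcagcg
FBL, chr19:39846359-39846382, minus strand, motif at 7: gctcttttcCACGTGcgaaagccc
PES1, chr22:30591883-30591906, minus strand, motif at 14: ttggcagggCACGTGcgggaggaa
MRTO4, chr1:19251810-19251833, plus strand, motif at 15: cttccgccgCACGTGgattcagcg
NOP14, chr4:2963377-2963400, minus strand, motif at 16: gcggcccggCACGTGtcttagggt
MYBBP1A, chr17:4555343-4555366, minus strand, motif at 28: gccggagcaCACGTGtttcgtgtt
BYSL, chr6:41921518-41921541, plus strand, motif at 29: ttcagtcccCACGTGcgatccttc
LTV1, chr6:143843357-143843380, plus strand, motif at 29: ctggggctgCACGTGtggtgaggc
NOP2, chr12:6568242-6568265, minus strand, motif at 36: tccggattgCACGTGgagggccgc

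The 14 windows share the 6 letters of the motif and, beyond them, no fixed base. NOP10 has a further site at -170, and the only site of EBNA1BP2 lies at -237. By role, the motif was in 8 of 15 small subunit factors, 4 of 14 large subunit factors and 0 of 7 Pol I genes. The same letters were in 12 of 30 other small subunit factors (40.0%) and 9 of 29 other large subunit factors (31.0%), 3 of 7 Pol III subunits and 3 of 63 ribosomal proteins (4.76%). A match describes letters in a window, not binding by MYC, and no match says only that these letters are not in the window.

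Levels of members with and without the motif overlapped. The 15 with it had a median level of 82.8, from UTP20 at 7.77 to FBL at 571, and the 31 members without it 66.3, from EMG1 at 6.60 to NPM1 at 1691. With CACGCG, a variant that MYC is also known to bind, counted on either strand beside CACGTG, 29 of 46 promoters (63.0%) held a match, against 23.8% of protein-coding promoters. By role, such a match was in 11 of 15 small subunit factors, 8 of 14 large subunit factors and 4 of 7 Pol I genes. It was in 17 of 30 other small and 15 of 29 other large subunit factors. GC content was alike, with a median of 63.0% in the members and 64.0% in protein-coding genes.

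Ribosomal protein RNAs are known for a start of C followed by a run of pyrimidines, the terminal oligopyrimidine signature that couples their translation to growth signalling. A C at the start site followed by at least 4 pyrimidines was found in 43 of 63 ribosomal protein promoters (68.3%). It was in 5.05% of protein-coding promoters and in 6 of 46 members (13.0%). Of the other small subunit factors 1 of 30 (3.33%) had it, and of the other large ones 3 of 29 (10.3%). The first 20 bases from the start of the 6 members are shown, with the pyrimidine run in capitals.

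NPM1: CTTTCCCTggtgtgattccg
FBL: CTTTTCCacgtgcgaaagcc
DDX21: CTCTTCCTCTCCacgcggtt
TAF1D: CCTTTTCTTCCgcacggttg
EBNA1BP2: CCTCCCCCggggtcctcctc
NOB1: CTCTCacgcagccaacatgg

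In FBL both features meet, since the last base of its run of 7 pyrimidines is the first base of its E-box. Levels of the 6 did not rise with the length of the run. DDX21, with a run of 12, had a level of 171 and TAF1D, with 11, had 124. NPM1 and EBNA1BP2, with 8 each, had 1691 and 171. FBL, with 7, had 571, and NOB1, with 5, had 83.2. NPM1 and FBL were the 2 genes with the highest level by canonical transcript, though FBL was in place 6 by coding length. A link between such a start and the level was not tested. The start is that of RefSeq, and start sites in FUJIOKA cells were not measured.

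The label of the cells was checked against marker genes. Of the myeloid markers, CD33 had a level of 284, PTPRC, the pan-leukocyte CD45 gene, 91.6, CSF3R 73.9 and MPO 30.6, while the progenitor markers CD34 and KIT were low, at means of 19.6 and 0.666 normalised reads. Of the markers of other cells reported here, EPCAM, ALB and HBB were listed at 0 and CD3E had a mean of 0.500. CD79A, a B cell gene, was the highest of them, with a mean of 183 and a level of 8.93. Where a single library holds a gene's only read, the mean of that gene gives the library's size factor, and the 6 factors read in this way lay between 0.985 and 1.03. The total read count of each library was not analysed here, and the normalised reads summed to 38425214 per library on average.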

How the data were processed

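RNA of FUJIOKA cells was sequenced by the authors in 3 shNEG and 3 shSPINK2 libraries, made with an mRNA kit and read from both ends. Per the methods, read quality was checked in FastQC, alignment was done with STAR, gene counts came from featureCounts and the authors ran DESeq2 for the group comparison. The submitters' processing notes name, as tools of the authors, STAR 2.7.11, DESeq2 1.40.0 and build hg38. The annotation release and the strandedness of counting are not given in the sources used here. The column used is a signal that the authors derived by scaling counts with DESeq2 size factors and averaging the 6 libraries. The deposited table also holds 5 columns of the authors' comparison (log2 fold change, its standard error, test statistic, p-value and adjusted p-value), which were not used, and no value per library, so no count test was run and no difference between groups is given.

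Rows were matched by Ensembl ID without version to GENCODE release 44 (57532 of 63236 rows, 99.9% of the summed mean). Levels are means divided by the length of the canonical transcript and scaled to 1000000 over all genes with a length, and this step was tested on simulated data. Overlaps were found with bedtools 2.31.1, and tables were made with Python 3.11.15, pandas 2.3.3, numpy 2.4.6 and scipy 1.17.1. Promoters are RefSeq sequences of GRCh38.p14, and where a symbol had several the first was used (7811 further ones were dropped). Named are all 54 genes by role, SPINK2, the highest and lowest gene of each comparison list, and the snoRNA genes and pseudogenes with the highest means. Other list genes, overlap partners, the position of the E-box, the overlap measure and the pyrimidine starts were chosen after the values were seen. The members and the lists were chosen with earlier results of these data known. Alternatives tried were gene length, scaling, the background genes, the promoter window and motif, the strand and a minimum mean.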

Additional observations from a re-analysis of the deposited data

How the results depend on the processing

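The median percentile of the 54 genes, 87.6, was 88.8 by the length of all exons, 80.0 by coding length, 83.9 when the background was cut to means of 10 or more and 89.9 among all protein-coding genes, and it stayed at 87.6 when levels were scaled over nuclear protein-coding genes. The number of genes above the median protein-coding gene was 52 and ranged from 50 to 54 over the same settings. Of the 54 single levels, 52 were marked as moved with coding length and 52 with all exons. All 54 were so marked when scaled over nuclear protein-coding genes, which changes every level by the same factor. Levels by coding length and by all exons were also rescaled to the same sum, so their marks include a factor common to all genes too. The mark used a wider limit than the counting error given above. SBDS went from 19.3 to 19.9 by coding length and was marked as the same.

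The share of member promoters with an E-box, 32.6%, was 13.0% in the 250 bases before the start alone and 63.0% with CACGCG added, where the share in protein-coding promoters, 9.45%, was 8.58% and 23.8%. For background genes whose mean reached 50 it was 10.3%. The 35 snoRNA genes inside members were the same number on either strand. Of the 75 named pseudogenes, 25 had a mean of at least 1. Counted on the same strand alone, 1 member in place of 2 had an overlap of over 50%, which is a setting added after seeing the data.

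No paired analysis was possible because the table holds no value per library and its columns carry no replicate numbers. For the same reason other settings of the knockdown comparison (TMM against size factors, no filter on low counts, DESeq2 in place of edgeR, the replicate block and leaving out each replicate) were not run. Depth limits little here, with counting error of at most 1.69% of a member's mean, but the spread between libraries is unknown for every value.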
